A study of Danio rerio with 24 samples.

Results

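Genes used by neurons, 10 in number, were followed through sorted zebrafish cells: elavl3, elavl4, gng3, gap43, sncb, sncgb, otpa, neurod6b, mab21l2 and phox2bb. They were found by gene name among 25067 genes of the deposited expression table, and all 10 were present. They were chosen by name and partly by their high FPKM values in cells without either reporter, so their excess in those cells over the reporter-positive cells is a description here and was not tested. Poly(A) RNA was measured in 24 libraries, 12 groups of 2. Embryonic and larval cells came from a double transgenic line carrying kdrl:mCherry and CD41:GFP. The first is a reporter driven by an endothelial promoter, the second by the promoter of a thrombocyte and blood progenitor integrin. Both transgenes were carried by the fish of every embryonic and larval group. Libraries labelled endothelial cells (EC), libraries labelled hematopoietic stem and progenitor cells (HSPC) and double-negative cells (DN) were read at 36 hpf (hours after fertilization) and at 3 and 4 dpf (days after fertilization), and DN cells also at 52 hpf. HSPC and DN cells were further sorted from kidney marrow of CD41:GFP fish at 3 mpf (months after fertilization). The design names no mCherry reporter there, so the kidney DN gate is not the DN gate of the earlier stages. The sample titles name the caudal hematopoietic tissue from 52 hpf on and not at 36 hpf, so dissection and stage cannot be told apart in comparisons with 36 hpf. No label says whether the 2 libraries of a group came from separate clutches or sorts, so the spread behind each p-value may be technical. That spread was estimated for each gene over all 8 groups fitted together, not from the groups compared alone.

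Neurons leave the cell cycle under proneural transcription factors, switch on ELAV-like RNA-binding proteins, extend an axon and then assemble synapses. elavl3, known as HuC, and elavl4, known as HuD, encode such RNA-binding proteins and are widely used as markers of new and maturing neurons in zebrafish. gng3 encodes a G protein gamma subunit of neurons, gap43 a membrane-bound phosphoprotein of the growth cone, and sncb and sncgb a beta and a gamma synuclein, small proteins of the presynaptic terminal. otpa, neurod6b and phox2bb encode transcription factors: Orthopedia, needed for neuroendocrine and dopaminergic neurons of the hypothalamus, a basic helix-loop-helix factor of differentiated neurons, and a homeodomain factor of autonomic, enteric and hindbrain visceral motor neurons. mab21l2 encodes a regulator of eye and midbrain development.

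Values are FPKM (fragments per kilobase of gene, relative to library depth), normalised by the authors, and stand as replicate 1 and then replicate 2. Recovered reads per library ran from 1741360 to 21338170. In the EC libraries kdrl was at 5.16 and 3.68 FPKM at 36 hpf but 0.333 and 0.323 FPKM at 3 dpf, where DN libraries held 0.257 and 0.387 FPKM. At 3 dpf itga2b, which encodes CD41, was at 6.55 and 5.72 FPKM in the libraries labelled EC. Those labelled HSPC held 6.54 and 7.98 FPKM. The 3 dpf EC label thus goes against its own reporter genes, kdrl and itga2b. Taken over 11 endothelial genes, the mean log2(FPKM + 1) at 3 dpf was still highest under the EC label, at 1.84 and 1.73. The HSPC label gave 1.2 and 1.28, while double-negative cells gave 0.99 and 1.03. At 36 hpf the EC libraries had stood higher, at 3.55 and 3.0, and DN libraries of 52 hpf held 1.68 and 1.6. By the limma test described below, 2 of the 11 genes were lower and 1 higher in HSPC than in EC libraries at 3 dpf. The other 8 did not pass. itga2b was also at only 0.428 and 0 FPKM in the libraries labelled HSPC at 36 hpf. Replicate 2 of EC at 4 dpf held 2483 genes above 0, and 43.9% of the FPKM of HSPC replicate 2 at 4 dpf fell on mitochondrial genes, so the 4 dpf EC and HSPC groups and the kidney groups are given as values with no test. In bulk libraries, fewer cells of a type and less RNA per cell cannot be told apart.

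The embryonic and larval double-negative cells held the neuronal genes at their highest levels, as the choice of the genes favoured, and the 4 stages did not run in one direction. Summed over the 10 genes, the level was 2240 and 2050 FPKM at 36 hpf, 724 and 808 FPKM at 52 hpf, 3800 and 3610 FPKM at 3 dpf and 2690 and 2380 FPKM at 4 dpf. The 52 hpf libraries were the lowest of the 4 stages and the 3 dpf libraries the highest, without overlap between any of the stages. All 10 genes had a value above 0 in each of these 8 libraries, and 8 of the 10 reached at least 1 FPKM at 52 hpf.

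Of the RNA-binding protein genes, elavl3 was at 523 and 491 FPKM at 36 hpf, 181 and 194 FPKM at 52 hpf, 541 and 382 FPKM at 3 dpf and 218 and 239 FPKM at 4 dpf in DN cells. Its 36 hpf and 3 dpf values overlapped. elavl4 was at 128 and 117 FPKM, 60.4 and 66.1 FPKM, 444 and 412 FPKM and 288 and 282 FPKM at the same 4 stages, which did not overlap. So elavl3 was highest at 36 hpf by its mean (507 ± 22.7 FPKM, SD, n = 2, against 461 ± 113 FPKM at 3 dpf), whereas elavl4 was highest at 3 dpf.

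The signalling and growth cone genes had their lowest DN values at 52 hpf. gng3 was at 198 and 176 FPKM at 36 hpf, 69.7 and 64.1 FPKM at 52 hpf, 259 and 294 FPKM at 3 dpf and 231 and 167 FPKM at 4 dpf, with the 4 dpf values spanning those of 36 hpf. gap43 was at 241 and 206 FPKM, 111 and 141 FPKM, 242 and 273 FPKM and 172 and 149 FPKM. For gap43 the 3 dpf libraries both lay above the 36 hpf libraries, at the closest with 242 against 241 FPKM.

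Both synuclein genes were highest at 3 dpf by their means. sncb was at 333 and 291 FPKM at 36 hpf, 112 and 108 FPKM at 52 hpf, 567 and 564 FPKM at 3 dpf and 414 and 353 FPKM at 4 dpf. sncgb was at 147 and 144 FPKM, 59.5 and 58.7 FPKM, 508 and 519 FPKM and 532 and 449 FPKM. The 4 stages of sncb were separate, while the 3 dpf and 4 dpf libraries of sncgb overlapped.

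Among the transcriptional regulators, otpa was at 250 and 240 FPKM at 36 hpf, 73.0 and 96.3 FPKM at 52 hpf, 566 and 575 FPKM at 3 dpf and 371 and 335 FPKM at 4 dpf. mab21l2 was at 378 and 340 FPKM, 56.7 and 80.3 FPKM, 580 and 498 FPKM and 396 and 366 FPKM, with overlap between 36 hpf and 4 dpf only. Both shared the trough at 52 hpf and the highest mean at 3 dpf. neurod6b was at 9.45 and 7.59 FPKM at 36 hpf, 0.238 and 0.147 FPKM at 52 hpf, 90.0 and 97.6 FPKM at 3 dpf and 66.0 and 42.1 FPKM at 4 dpf. The 52 hpf values rest on 6 and 4 recovered reads, against 1623 and 1647 reads at 3 dpf. phox2bb stood apart from the other 9, with values of 33.2 and 41.0 FPKM at 36 hpf, 0.132 and 0.0488 FPKM at 52 hpf, 1.70 and 1.3 FPKM at 3 dpf and 1.42 and 2.81 FPKM at 4 dpf. Its 52 hpf values rest on 5 and 2 reads, and neither later stage came near the 36 hpf level.

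**Figure D1:**
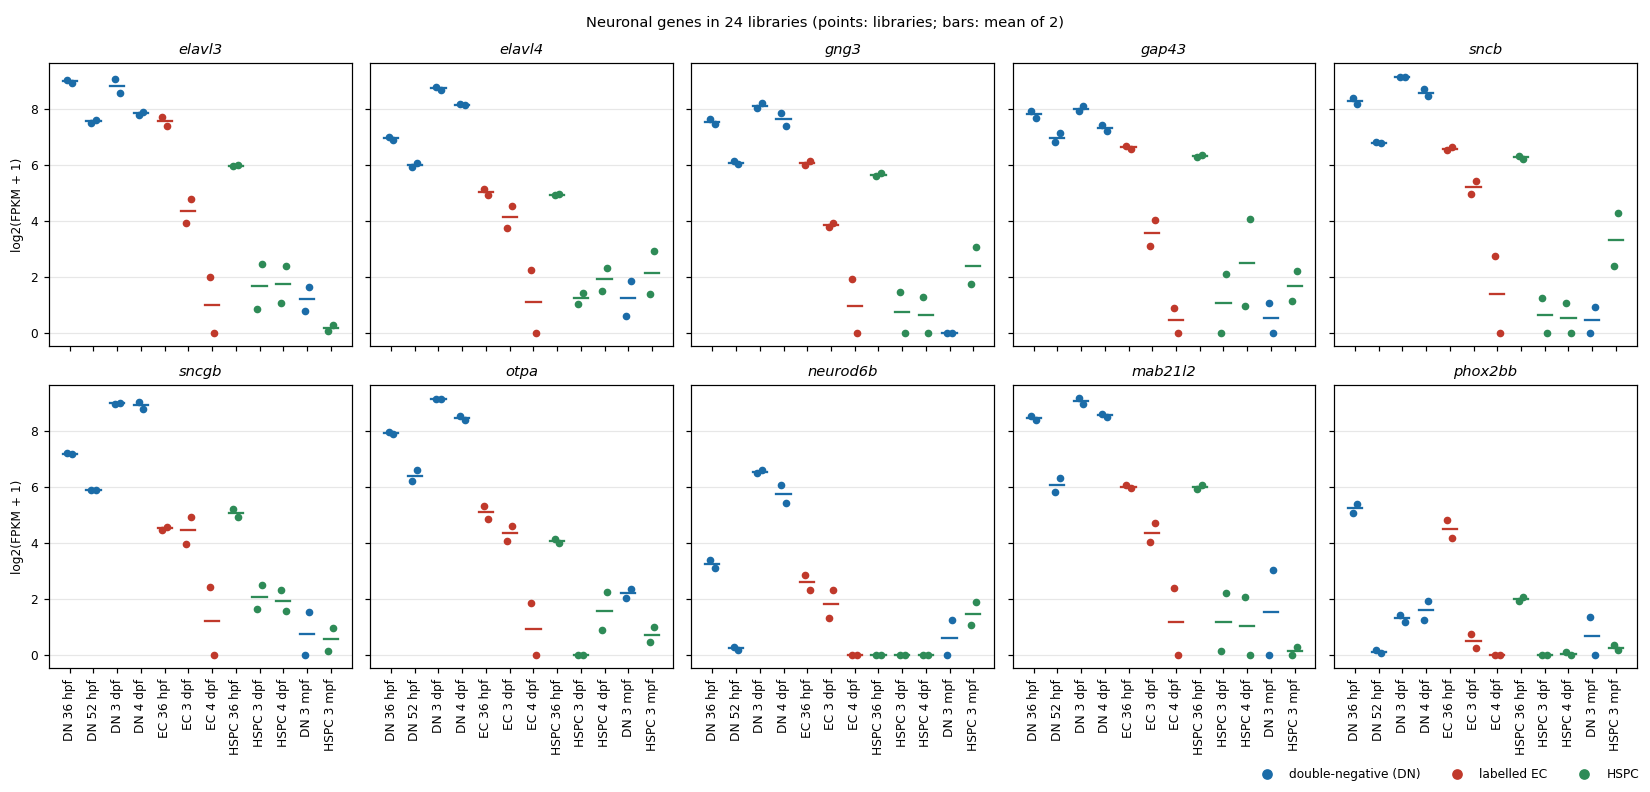
Level of each of the 10 genes in every library, as log2(FPKM + 1) on the vertical axis, with the 12 groups of 2 libraries along the horizontal axis and 1 point per library. The embryonic and larval DN libraries are the highest for every gene at one stage or another, which the choice of genes with high DN values favoured. In them 9 genes dip at 52 hpf and are high again at 3 dpf, and phox2bb is high at 36 hpf alone.

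From 36 to 52 hpf, 8 of the 10 genes fell in DN cells, with phox2bb and neurod6b falling furthest. How far each DN stage counted in the choice of the genes is not recorded, so tests between DN stages are not independent of that choice. Tests were run with limma on log2(FPKM + 1) over 19119 genes, and called genes are those with an adjusted p (Benjamini-Hochberg) under 0.05 whose log2 fold change reached 1 in either direction. Of all genes tested, 19.6% were called (7.87% higher and 11.8% lower), and the median change of the 10 genes was -1.48 against -0.18 over all genes. phox2bb changed by -5.12 ± 0.32 on the log2 scale (SE, limma adjusted p 1.2e-06) and neurod6b by -2.99 ± 0.34 (adjusted p 9.03e-05). mab21l2 changed by -2.39 ± 0.46 (adjusted p 0.00262), otpa by -1.53 ± 0.22 (0.0004), sncb by -1.50 ± 0.30 (0.00312) and sncgb by -1.28 ± 0.29 (0.00646). gng3 at -1.47 ± 0.34 (limma adjusted p 0.0073) and elavl3 at -1.43 ± 0.40 (0.0189) were also called. elavl4 at -0.94 ± 0.23 (limma adjusted p 0.00924) stayed under the fold threshold, and gap43 at -0.83 ± 0.48 had an adjusted p of 0.237.

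The call of elavl3 was lost when any 1 of the 4 libraries was left out, though its log2 change stayed between -1.48 and -1.38. That of gng3 was lost without DN 36 hpf replicate 1 (log2 change -1.38) or DN 52 hpf replicate 2 (-1.41). elavl4 became called without replicate 2 of either stage (log2 change -1.0 in both). With a pseudocount of 0.1 in place of 1, elavl3, gng3, sncb and mab21l2 were not called (limma adjusted p 0.0833 to 0.284). The scale mattered for the whole table: 40.1% of called genes were higher at 52 hpf, against 54.8% after median-of-ratios scaling and 25.8% after scaling to a common FPKM sum.

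Lists of axon, synaptic, transmitter and neurogenic genes also fell for the most part, while most spinal cord and autonomic neuron genes were not called. Of 29 genes of the axon and neuronal cytoskeleton, 24 fell and none rose between 36 and 52 hpf, with a median change of -1.52. nrxn1a, which encodes the presynaptic adhesion protein neurexin, went from 47.2 and 40.2 FPKM to 11.7 and 11.1 FPKM, a change of -1.84 ± 0.25 (limma adjusted p 0.000352). Of 21 genes of synaptic vesicles and release 16 fell, among them syn1 (synapsin), from 34.7 and 38.5 FPKM to 8.98 and 11.6 FPKM (-1.74 ± 0.28, limma adjusted p 0.000827). Of 16 genes of transmitter synthesis and transport 10 fell, including slc6a5, the glycine transporter of inhibitory neurons, from 115 and 116 FPKM to 24.8 and 29.6 FPKM (-2.05 ± 0.30, limma adjusted p 0.000552). Of 15 neurogenic transcription factors 14 fell, onecut2 from 44.9 and 34.1 FPKM to 5.34 and 7.49 FPKM (-2.45 ± 0.41, limma adjusted p 0.00114). Of 16 spinal cord neuron genes 5 fell, 1 rose and 10 were not called (median -0.42), and of 12 autonomic and enteric neuron genes 5 fell and 7 were not called (median -0.89). Neural progenitor genes fell in 8 and rose in 1 of 14 cases.

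Markers of head and tail position differed over the same step. Of 26 forebrain genes 19 fell and none rose (median -1.64), such as otx2, a homeobox gene of the forebrain and midbrain, from 12.3 and 17.5 FPKM to 0.311 and 0.718 FPKM (-3.39 ± 0.31, limma adjusted p 2.14e-05). Midbrain and hindbrain genes fell in 7 of 12 cases and retina and lens genes in 8 of 14. Of 22 posterior hox genes, which mark the tail end of the body axis, 5 rose and 2 fell (median 0.67), and hoxa13a went from 2.23 and 0.996 FPKM to 7.39 and 6.82 FPKM (1.67 ± 0.33, limma adjusted p 0.00294). Whether the dissected region had a part in these changes was not tested.

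Blood and notochord transcripts rose as the neuronal genes fell. All 9 erythroid genes rose, their summed level going from 4270 and 4520 FPKM at 36 hpf to 91500 and 84900 FPKM at 52 hpf, and globin genes held 18.4% and 17.0% of all FPKM at 52 hpf against 1.1% and 1.18% at 36 hpf. All 6 neutrophil genes and 4 of 6 notochord and cartilage genes also rose. No erythroid or neutrophil gene was at 0 in these libraries, and of the notochord and cartilage genes 2 were at 0 in DN 36 hpf replicate 1. After scaling to a common FPKM sum with globin left out, a setting added after the data were seen, 8 of the 10 neuronal genes were still called lower at 52 hpf.

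From 52 hpf to 3 dpf, 9 of the 10 genes rose in DN cells. This test between DN stages is likewise not independent of the choice of the genes. Of all genes 37.1% were called (23.2% higher and 14% lower), and the median change was 2.55 for the 10 genes against 0.24 over all genes. neurod6b rose the most, by 6.31 ± 0.34 on the log2 scale (limma adjusted p 4.18e-07), followed by sncgb at 3.10 ± 0.29 (6.27e-06) and mab21l2 at 2.97 ± 0.46 (0.000188). otpa rose by 2.75 ± 0.22 (limma adjusted p 2.12e-06), elavl4 by 2.74 ± 0.23 (2.97e-06), sncb by 2.35 ± 0.30 (4.37e-05) and gng3 by 2.03 ± 0.34 (0.000336). elavl3 rose by 1.27 ± 0.40 (limma adjusted p 0.019) and phox2bb by 1.19 ± 0.32 (0.00788), from 5 and 2 reads to 46 and 33 reads. gap43 was at 1.03 ± 0.48 with an adjusted p of 0.0976.

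The call of elavl3 was lost without DN 52 hpf replicate 1 (limma adjusted p 0.0829), DN 52 hpf replicate 2 (0.0659) or DN 3 dpf replicate 1 (0.128), after median-of-ratios scaling (0.0569) and with a pseudocount of 0.1 (0.0862), which also ended the call of gng3 (0.0909). phox2bb was not called without DN 3 dpf replicate 1 (log2 change 1.08). gap43 was called by limma-voom on the recovered reads (adjusted p 0.000947). It was also called in a fit to only the groups compared (1.03, limma adjusted p 0.0066) and with a common FPKM sum (1.4, 0.0185). Of all called genes 62.4% were higher at 3 dpf, against 52.4% after median-of-ratios scaling and 75.3% after scaling to a common FPKM sum.

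Genes of axons and synapses rose with them, while most neural progenitor genes fell or were not called. All 29 axon and cytoskeleton genes rose (median 1.79), such as stmn4, a stathmin that binds tubulin, from 5.93 and 10.9 FPKM to 69.2 and 75.8 FPKM (3.01 ± 0.40, limma adjusted p 5.88e-05). Of 21 synaptic genes 20 rose (median 2.29), among them the vesicle calcium sensor syt1a, from 8.62 and 8.89 FPKM to 104 and 89.4 FPKM (3.32 ± 0.36, limma adjusted p 1.45e-05), and the membrane fusion protein gene snap25b, from 54.5 and 43.2 FPKM to 359 and 400 FPKM (2.94 ± 0.24, adjusted p 2.85e-06). Transmitter genes rose in 12 and fell in 1 of 16 cases. slc32a1, the vesicular transporter of GABA and glycine, reached 221 and 209 FPKM (2.74 ± 0.32). Of 14 progenitor genes 6 fell and 1 rose: notch3, a Notch receptor, went from 22.2 and 41.5 FPKM to 2.08 and 1.82 FPKM (-3.41 ± 0.37, limma adjusted p 1.59e-05), and sox2, a factor of neural stem cells, from 47.9 and 44.6 FPKM to 9.08 and 8.61 FPKM (-2.26 ± 0.30, limma adjusted p 5.55e-05). Neurogenic transcription factors were split, with 5 higher and 2 lower of 15. Of 16 spinal cord neuron genes 3 rose and 13 were not called (median 0.51), and of 12 autonomic and enteric neuron genes 6 rose and 1 fell (median 0.56).

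The lists of body position differed. Of 12 midbrain and hindbrain genes 7 rose and none fell (median 1.49), and the mean log2(FPKM + 1) of that list was 4.04 and 4.08 (36 hpf), then 2.63 and 2.75 (52 hpf), then 4.51 and 4.00 (3 dpf). Of forebrain genes 2 rose and 2 fell of 26, and the mean log2(FPKM + 1) was 2.13 and 2.48 (36 hpf), then 0.66 and 0.97 (52 hpf), then 0.87 and 0.63 (3 dpf). Of the 22 posterior hox genes 16 rose and none fell (median 1.5), with hoxc12b going from 17.7 and 22.7 FPKM to 179 and 154 FPKM (2.99 ± 0.41, limma adjusted p 7.79e-05). Of 14 glial genes 8 rose and 4 fell: the myelin genes mag (5.71 ± 0.39) and mbpa (4.84 ± 0.30) rose, with limma adjusted p of 9.77e-07 and 6.58e-07. gfap, the intermediate filament gene of radial glia, fell from 204 and 97.4 FPKM to 12.3 and 15.6 FPKM (-3.26 ± 0.31, limma adjusted p 6.69e-06).

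Transcripts of other tissues fell over the same step. All 9 erythroid and all 6 neutrophil genes fell, the erythroid sum going to 4080 and 8250 FPKM. Of 9 epidermal genes 7 fell, with a summed level of 10700 and 8150 FPKM at 52 hpf and 1250 and 2540 FPKM at 3 dpf, and 7 of 8 muscle genes fell, from 1360 and 955 FPKM to 312 and 477 FPKM. None of these genes was at 0 in these 4 libraries. After scaling to a common FPKM sum with globin left out, all 10 neuronal genes were called higher at 3 dpf, and the part of the other tissues beyond globin was not tested.

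From 3 to 4 dpf no member was called by limma, where 6.35% of all genes were (4.28% higher and 2.07% lower). Here too the test uses DN columns, which partly chose the genes. The median change of the 10 genes was -0.57 against 0.01 over all genes, and elavl3, elavl4, otpa and neurod6b had an unadjusted p under 0.05, which makes 4 genes. otpa came closest to a call at -0.69 ± 0.22 (limma adjusted p 0.0651), then elavl4 at -0.59 ± 0.23 (0.126), elavl3 at -0.99 ± 0.40 (0.139) and neurod6b at -0.82 ± 0.34 (0.151). sncgb was at -0.07 and phox2bb at 0.29, with adjusted p of 0.918 and 0.624. limma-voom on recovered reads called 0 members as well, while scaling to a common FPKM sum called 2, elavl3 (-1.23, limma adjusted p 0.0482) and neurod6b (-1.05, 0.0487). With that scaling 35.8% of all called genes were higher at 4 dpf, and after median-of-ratios scaling 54.9%, against 67.4% as deposited.

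Between 3 and 4 dpf, 2 of 29 axon genes, 4 of 21 synaptic genes and 3 of 9 relatives from the otp, mab21l, phox2 and neurod families fell. None of these rose. Several of these calls did not hold. With a pseudocount of 0.1 the axon gene map1b, the synaptic genes sv2c and syt2a and the relatives neurod4 and otpb were not called (limma adjusted p 0.091 to 0.323). A fit to only the groups compared lost the same genes and mab21l1 (limma adjusted p 0.0541 to 0.149). Transmitter genes rose in 1 and fell in 1 of 16 cases, spinal cord neuron genes fell in 1 of 16, and autonomic and enteric neuron genes rose in 2 of 12. Of 14 glial genes 8 rose and none fell. plp1b, a myelin proteolipid gene, went from 34.8 and 26.5 FPKM to 170 and 113 FPKM (2.15 ± 0.36, limma adjusted p 0.00432), and mbpa, myelin basic protein, from 29.4 and 26.4 FPKM to 149 and 123 FPKM (2.24 ± 0.30, adjusted p 0.00158). Neither was called with a pseudocount of 0.1 (limma adjusted p 0.165 for plp1b and 0.101 for mbpa). Muscle genes rose in 7 of 8 cases, their sum going from 312 and 477 FPKM to 2550 and 1970 FPKM with none at 0.

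The proportions among the genes also shifted in DN cells. Taken as a ratio of FPKM within each library, elavl4 stood at 0.244 and 0.238 of elavl3 at 36 hpf, and the later stages in order gave 0.334 and 0.341, 0.821 and 1.08, and 1.32 and 1.18. sncgb stood at 0.281 and 0.293 of elavl3, then 0.328 and 0.303, 0.938 and 1.36, and 2.44 and 1.88. Both ratios were thus higher in every later-stage library of 3 and 4 dpf than in any library of 36 or 52 hpf. otpa followed at 0.478 and 0.489, then 0.403 and 0.497, 1.05 and 1.51, and 1.71 and 1.40. gng3, sncb and mab21l2 also stood higher against elavl3 in every DN library of 3 and 4 dpf than in any of 36 or 52 hpf. elavl3 itself had a mean of 507 FPKM at 36 hpf and 228 FPKM at 4 dpf. Between the same stages the mean of gng3 was 187 and 199 FPKM and that of mab21l2 359 and 381 FPKM. gap43 kept a narrower range, with 0.461 and 0.420, then 0.614 and 0.728, 0.448 and 0.716, and 0.792 and 0.623. neurod6b fell from 0.0181 and 0.0155 of elavl3 to 0.00131 and 0.000756 at 52 hpf and stood at 0.166 and 0.256 at 3 dpf. phox2bb was at 0.0635 and 0.0836 at 36 hpf and at most 0.0118 in the 6 later DN tail libraries. The shift was not particular to DN cells. In libraries labelled EC, elavl4 stood at 0.163 and 0.176 of elavl3 at 36 hpf and at 0.865 and 0.826 at 3 dpf. sncgb went there from 0.103 and 0.137 to 1.05 and 1.1, and otpa from 0.191 and 0.166 to 1.12 and 0.883. gap43 overlapped between these EC stages, and phox2bb was lower at 3 dpf. In EC libraries the mean of elavl3 was 188 FPKM at 36 hpf and 20.5 FPKM at 3 dpf. These ratios do not depend on the library scale, but all share elavl3 as denominator, so a fall of elavl3 alone raises them. The ratios were not tested.

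**Figure D2:**
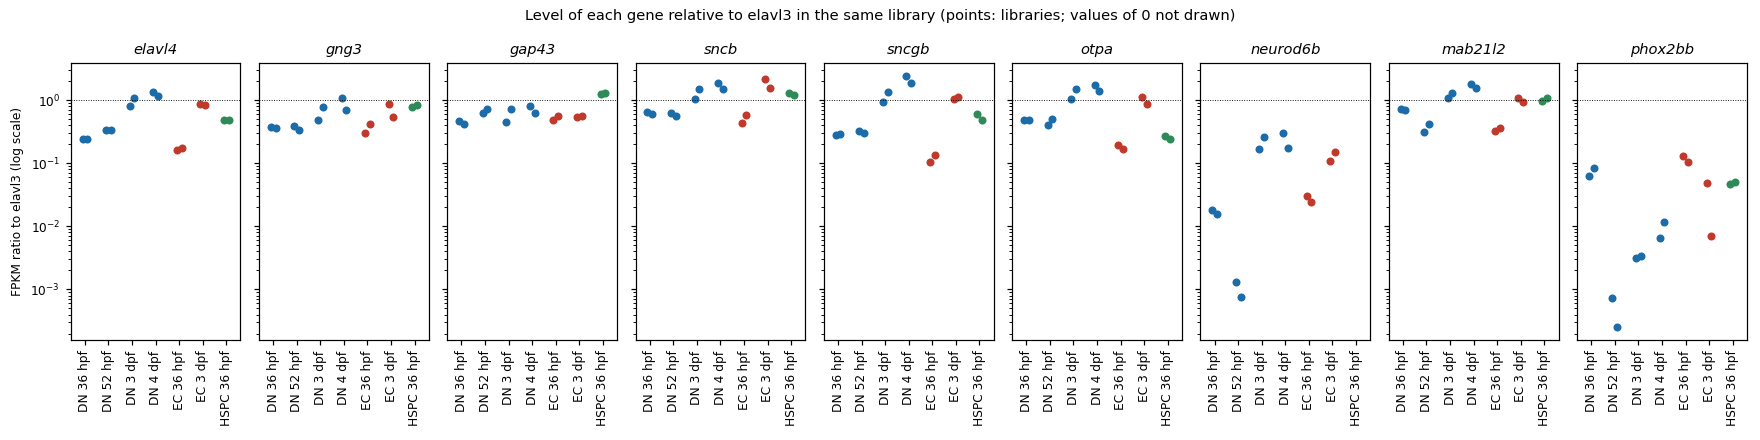
Ratio of each of 9 genes to elavl3 within a library (FPKM over FPKM, logarithmic vertical axis), 1 point per library. Embryonic and larval libraries with at least 5 FPKM of elavl3 are shown. All but gap43 and phox2bb stand higher against elavl3 at 3 and 4 dpf than at 36 and 52 hpf in DN cells. In EC the same genes stand higher at 3 dpf than at 36 hpf. elavl3, the shared denominator, is itself lower at 4 dpf than at 36 hpf in DN cells and lower at 3 dpf than at 36 hpf in EC. phox2bb stands higher at 36 hpf than later within DN and within EC.

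The EC libraries at 36 hpf also held neuronal transcripts, at lower levels than DN cells of that stage in all 10 genes. The genes were chosen partly for high DN values, so this order was favoured by the choice. In EC libraries the sum was 660 and 594 FPKM at 36 hpf and 126 and 203 FPKM at 3 dpf. elavl3 was at 208 and 168 FPKM and then 14.3 and 26.8 FPKM, gap43 at 102 and 95.1 FPKM and then 7.68 and 15.3 FPKM, and phox2bb at 27.5 and 17.3 FPKM and then 0.691 and 0.190 FPKM. For these 3 genes the stages were far apart. gng3 was at 62.6 and 69.9 FPKM and then 12.6 and 14.2 FPKM, sncb at 90.8 and 97.7 FPKM and then 30.3 and 42.0 FPKM, and mab21l2 at 67.2 and 61.2 FPKM and then 15.4 and 25.2 FPKM. elavl4 was at 34.0 and 29.6 FPKM and then 12.4 and 22.1 FPKM, otpa at 39.8 and 27.9 FPKM and then 16 and 23.6 FPKM, and neurod6b at 6.32 and 4.03 FPKM and then 1.53 and 3.99 FPKM. sncgb overlapped, at 21.4 and 23.0 FPKM and then 14.9 and 29.5 FPKM, and neurod6b was separate only by 4.03 against 3.99 FPKM. The share of all genes with separate stages was not counted.

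Between 36 hpf and 3 dpf, 6 of the 10 genes fell in libraries labelled EC, where 32.6% of all genes were called (9.21% higher and 23.4% lower). The median change was -1.51 for the 10 genes and -0.17 over all genes. phox2bb changed by -4.01 ± 0.32 (limma adjusted p 1.27e-06), elavl3 by -3.19 ± 0.40 (4.01e-05), gap43 by -3.07 ± 0.48 (0.000226), gng3 by -2.22 ± 0.34 (0.000189), mab21l2 by -1.65 ± 0.46 (0.0115) and sncb by -1.38 ± 0.30 (0.00234). elavl4 at -0.90 ± 0.23 and otpa at -0.75 ± 0.22 passed the adjusted p (0.0066 and 0.0142 by limma) without reaching the fold threshold, neurod6b was at -0.77 ± 0.34 (0.0885) and sncgb at -0.07 ± 0.29 (0.881). mab21l2 was not called without EC 36 hpf replicate 1 (limma adjusted p 0.0643) or EC 3 dpf replicate 1 (0.101), and without EC 3 dpf replicate 2 the calls numbered 9, adding elavl4 (-1.29), otpa (-1.01) and neurod6b (-1.26). A pseudocount of 0.1 ended the calls of gng3, sncb and mab21l2 (limma adjusted p 0.0655 to 0.215).

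In the same comparison 21 of 29 axon genes, 12 of 21 synaptic genes and all 15 neurogenic transcription factors fell, and none of them rose. ebf2, a helix-loop-helix factor of differentiating neurons, changed by -5.15 ± 0.25 (limma adjusted p 5.91e-08), and nhlh2, another such factor, went from 98.0 and 65.2 FPKM to 0.292 and 2.4 FPKM (-5.27 ± 0.37, adjusted p 4.82e-07). Progenitor genes fell in 11 of 14 cases, sox2 from 112 and 86.5 FPKM to 0.707 and 1.06 FPKM (-5.73 ± 0.30). All 9 epidermal and all 8 muscle genes fell too, the epidermal sum from 7730 and 9660 FPKM to 540 and 467 FPKM and the muscle sum from 2380 and 2650 FPKM to 476 and 153 FPKM, with none at 0. All 6 neutrophil genes rose and 7 of 11 endothelial genes fell. Of 10 HSPC and thrombocyte genes 8 rose and 1 fell (median 1.60), with a sum of 167 and 239 FPKM at 36 hpf and then 555 and 473 FPKM. The part of these shifts in the neuronal values was not tested.

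The libraries labelled HSPC held 9 of the 10 genes above 0 at 36 hpf, and 6 and 5 of them at 3 dpf, at low levels. The sum was 410 and 414 FPKM at 36 hpf and 7.30 and 17.9 FPKM at 3 dpf. elavl3 was at 61.1 and 62.3 FPKM and then 0.806 and 4.56 FPKM, elavl4 at 29.4 and 29.9 FPKM and then 1.05 and 1.68 FPKM, and gng3 at 47.3 and 51.5 FPKM and then 1.78 and 0 FPKM. gap43 was at 76.6 and 81.4 FPKM and then 0 and 3.32 FPKM, sncb at 79.5 and 74.0 FPKM and then 1.38 and 0 FPKM, and sncgb at 36.3 and 29.9 FPKM and then 2.17 and 4.71 FPKM. The stages did not overlap for any of these, and the share of all genes without such overlap was not counted. mab21l2 was at 59.9 and 66.8 FPKM and then 0.109 and 3.67 FPKM, otpa at 16.7 and 15 FPKM and then 0 in both, phox2bb at 2.84 and 3.19 FPKM and then 0 in both. neurod6b was listed at 0 in all 4.

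All 9 detected genes fell from 36 hpf to 3 dpf in HSPC libraries, beside 45.5% of all genes called (14.1% higher and 31.4% lower), with a median change of -4.19 over the 10 genes and -0.38 over all genes. sncb changed by -5.65 ± 0.30 (limma adjusted p 1.6e-08), gap43 by -5.26 ± 0.48 (1.27e-06), gng3 by -4.92 ± 0.34 (1.21e-07) and mab21l2 by -4.82 ± 0.46 (1.93e-06). elavl3 changed by -4.31 ± 0.40 (limma adjusted p 1.46e-06), elavl4 by -3.71 ± 0.23 (4.58e-08) and sncgb by -3.00 ± 0.29 (2.19e-06). otpa (limma adjusted p 1.69e-08) was at least 196-fold lower and phox2bb (0.000148) at least 46.5-fold lower at 3 dpf, taking 3 reads over the group as the floor. These floors cover counting error only.

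Other lists fell as widely: 25 of 29 axon genes, 18 of 21 synaptic genes, 13 of 15 neurogenic factors and all 22 posterior hox genes fell. stmn2a, a stathmin of growing axons, went from 29.8 and 37.7 FPKM to 0.852 and 0 FPKM (-4.67 ± 0.28), and insm1a, a zinc finger factor of newborn neurons, from 41.9 and 42.4 FPKM to 1.09 and 0.878 FPKM (-4.44 ± 0.22). sypa, a synaptic vesicle membrane gene, went from 55.8 and 56.6 FPKM to 0 in both libraries. All 9 epidermal and all 8 muscle genes fell as well. The epidermal sum went from 14600 and 15700 FPKM to 175 and 167 FPKM with 1 gene at 0 in each 3 dpf library, lye, and the muscle sum from 3820 and 4290 FPKM to 12.6 and 8.67 FPKM with 4 genes at 0 in each, among them tnni2a.4. Of 10 HSPC and thrombocyte genes 8 rose and 1 fell (median 2.82), with a sum of 138 and 78.4 FPKM at 36 hpf and then 556 and 588 FPKM. Mitochondrial genes held 25.2% and 25.4% of the FPKM at 36 hpf and 14% and 13.1% at 3 dpf, and the libraries had 20520 and 19859 genes above 0 and then 13459 and 13274. The part of these in the neuronal values was not tested.

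At 36 hpf, HSPC libraries held 4 of the 10 genes at lower levels than EC libraries, where 8.94% of all genes were called (3.07% higher and 5.87% lower). The median difference, HSPC minus EC, was -0.37 over the 10 genes and -0.19 over all genes. Among the 4 were the transcription factor genes phox2bb at -2.51 ± 0.32 (limma adjusted p 0.000524), otpa at -1.03 ± 0.22 (0.00934) and neurod6b (0.000602), at least 72.4-fold lower because both HSPC libraries were at 0. elavl3 was the remaining one, at -1.59 ± 0.40 (limma adjusted p 0.0225). The 6 genes not called lay between -0.41 (gng3) and 0.55 (sncgb), with adjusted p from 0.251 to 0.987. The call of elavl3 was lost when any 1 of the 4 libraries was left out (limma adjusted p 0.0732 to 0.17) and after median-of-ratios scaling (0.0539), and that of otpa without EC 36 hpf replicate 1 (0.129), without HSPC 36 hpf replicate 2 (0.0823) and after that scaling (-0.80). Of all called genes 34.3% were higher in HSPC, against 55.5% after median-of-ratios scaling and 22.6% after scaling to a common FPKM sum.

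The lists differed in the same comparison. Of 15 neurogenic transcription factors 12 were lower in HSPC libraries (median -1.59), for example nhlh2 at 12.4 and 12.1 FPKM against 98.0 and 65.2 FPKM (-2.61 ± 0.37, limma adjusted p 0.00108). Of 29 axon genes only nova2, a splicing factor gene of neurons, was lower, at 18.3 and 18 FPKM against 68.1 and 45.5 FPKM (-1.57 ± 0.23, adjusted p 0.00131), and the median of 21 synaptic genes was -0.03. Muscle genes were higher in HSPC in 4 of 8 cases and erythroid genes lower in 8 of 9. The muscle sum was 3820 and 4290 FPKM in HSPC and 2380 and 2650 FPKM in EC libraries, and the erythroid sum 1060 and 1170 FPKM against 15500 and 11100 FPKM, with none at 0.

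At 3 dpf, 9 of the 10 genes were lower in libraries labelled HSPC than in those labelled EC, and 13.9% of all genes were called (1.45% higher and 12.5% lower). The median difference was -2.80 over the 10 genes and -0.27 over all genes. sncb differed by -4.57 ± 0.30 (limma adjusted p 1.1e-06), gng3 by -3.11 ± 0.34 (5.81e-05), elavl4 by -2.91 ± 0.23 (3.91e-06), elavl3 by -2.70 ± 0.40 (0.000551), gap43 by -2.51 ± 0.48 (0.00327), sncgb by -2.37 ± 0.29 (0.000139) and mab21l2 by -3.19 ± 0.46 (0.000474). otpa (limma adjusted p 8.86e-08) was at least 246-fold lower and neurod6b (0.00271) at least 28.3-fold lower in HSPC libraries. phox2bb, at 0 in both HSPC libraries and on 17 and 6 reads in EC, was not called (0.318). A fit to these 4 libraries alone kept sncb and otpa and lost the other 7 (limma adjusted p 0.0564 to 0.159).

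Axon genes were lower in HSPC libraries in 19 of 29 cases, synaptic genes in 13 of 21 and posterior hox genes in 18 of 22, and none was higher. snap25b was at 0 in both HSPC libraries and at 12.2 and 17.8 FPKM in those labelled EC, and hoxb9a at 0 against 7.08 and 11.2 FPKM. All 8 muscle genes were also lower in HSPC libraries, with a sum of 12.6 and 8.67 FPKM against 476 and 153 FPKM, as were 4 of 9 epidermal genes. Their part in the neuronal values was not tested.

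The change from 36 hpf to 3 dpf itself differed between the HSPC and EC labels for 7 of the 10 genes, 6 with a negative and 1 with a positive difference, where 8.59% of all genes were called (2.21% higher and 6.38% lower). The median difference of change, HSPC minus EC, was -2.75 over the 10 genes and -0.11 over all genes. sncb differed by -4.28 ± 0.42 (limma adjusted p 8.46e-05), otpa by -3.33 ± 0.31 (4.88e-05), mab21l2 by -3.17 ± 0.65 (0.0102), sncgb by -2.93 ± 0.41 (0.00105), elavl4 by -2.81 ± 0.32 (0.000231) and gng3 by -2.69 ± 0.48 (0.00453). phox2bb differed by 2.0 ± 0.45 (limma adjusted p 0.0163), having started from 27.5 and 17.3 FPKM in EC and 2.84 and 3.19 FPKM in HSPC libraries. elavl3 at -1.12 ± 0.56, gap43 at -2.20 ± 0.68 and neurod6b at 0.77 ± 0.48 were not called (limma adjusted p 0.25, 0.0616 and 0.358).

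The phox2bb difference was not called with a pseudocount of 0.1 (0.56, limma adjusted p 0.701), without EC 36 hpf replicate 1 (0.0933), without HSPC 36 hpf replicate 1 (0.0534) or in a fit to these 8 libraries alone (0.0571), which also lost mab21l2 (0.0706), and by limma-voom it was at -1.24 (adjusted p 0.66), so its direction depends on the scale. Without HSPC 3 dpf replicate 2, elavl3 (-1.93, limma adjusted p 0.00878) and gap43 (-3.25, 0.000378) were called too. In the same test 9 of 29 axon genes and 10 of 21 synaptic genes were lower and 1 synaptic gene higher, while neurogenic factors were higher in 2 of 15 cases and lower in none. The medians of the axon and synaptic lists were -1.21 and -1.20. All 8 muscle genes (median -4.50), 14 of 22 posterior hox genes (-2.02) and 5 of 9 epidermal genes (-2.21) were lower too, and none higher. Of 26 forebrain genes 6 were higher and 1 lower, and of 11 endothelial genes 2 were higher and none lower. The part of these in the neuronal values was not tested.

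**Figure D3:**
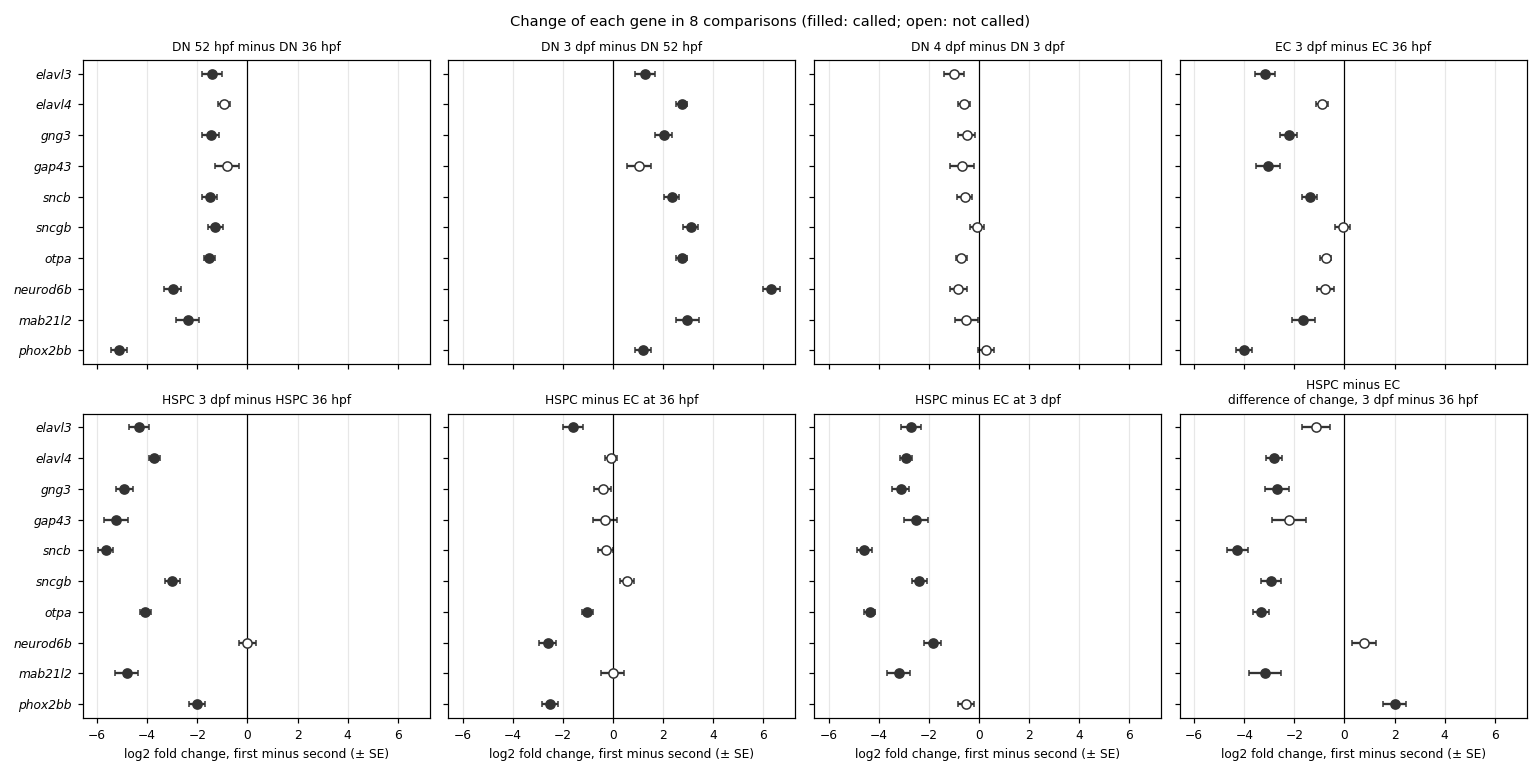
Log2 fold change of each of the 10 genes with its standard error from limma (horizontal axis, log2(FPKM + 1) scale), in 8 panels for the 8 comparisons. Filled points were called (Benjamini-Hochberg adjusted p under 0.05 and a change of at least 1). In DN cells 8 genes were lower from 36 to 52 hpf (19.6% of all genes called), 9 higher to 3 dpf (37.1%) and none called to 4 dpf (6.35%). DN columns partly chose the genes, so these DN tests are not independent of the choice. From 36 hpf to 3 dpf 6 were lower in EC (32.6%) and 9 in HSPC (45.5%). In HSPC against EC 4 were lower at 36 hpf (8.94%) and 9 at 3 dpf (13.9%). The change differed for 7 (8.59%).

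The remaining groups held little of these genes. At 4 dpf the sum was 27.3 FPKM in EC replicate 1 and 0 in the low-content EC replicate 2, and 14.6 and 29.6 FPKM in HSPC libraries. Of the latter, gap43 made up 0.922 and 15.6 FPKM and elavl4 1.82 and 4.03 FPKM. In the kidney the sum was 7.06 and 20.4 FPKM in DN and 11.3 and 41.1 FPKM in HSPC libraries. Kidney DN cells thus did not hold the levels of embryonic and larval DN cells. sncb was at 4.23 and 18.4 FPKM and gng3 at 2.31 and 7.28 FPKM in kidney HSPC, and mab21l2 at 0 and 7.31 FPKM and otpa at 3.16 and 4.20 FPKM in kidney DN libraries.

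Ordered by mean FPKM over the 12 groups, DN cells at 3 dpf came first for 8 genes and DN cells at 36 hpf for elavl3 and phox2bb. That a DN group came first was favoured by the choice of genes with high DN values. Neighbouring groups overlapped in several places. For gng3, DN at 52 hpf (66.9 ± 4.01 FPKM, SD, n = 2) overlapped EC at 36 hpf, and for mab21l2, DN at 52 hpf (68.5 ± 16.6 FPKM), EC at 36 hpf (64.2 ± 4.25 FPKM) and HSPC at 36 hpf did. For elavl3, EC at 36 hpf (188 ± 28.3 FPKM) overlapped DN at 52 hpf (188 ± 8.96 FPKM). For phox2bb, DN, EC and HSPC at 36 hpf took the first 3 places without overlap, and the groups from the fourth place to the eighth overlapped with their neighbours.

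Close relatives of the genes did not all share their course in DN cells. otpb, the paralog of otpa, was at 71.5 and 59.2 FPKM at 36 hpf, 16.7 and 23.3 FPKM at 52 hpf, 98.8 and 100 FPKM at 3 dpf and 51.5 and 39.2 FPKM at 4 dpf. mab21l1 was at 169 and 139 FPKM, 26.8 and 39.1 FPKM, 138 and 119 FPKM and 60.9 and 52.9 FPKM, so both had the trough at 52 hpf. neurod6a, the paralog of neurod6b, was at 0.547 and 0.647 FPKM, 0.0842 and 0 FPKM, 9.76 and 5.78 FPKM and 7.49 and 7.77 FPKM, and its rise to 3 dpf was called (3.04 ± 0.26, limma adjusted p 3.49e-06). Of 9 relatives from the otp, mab21l, phox2 and neurod families 6 fell from 36 to 52 hpf, and 6 rose and 1 fell from 52 hpf to 3 dpf. The one that fell was neurod4, a factor of newly forming neurons, from 54.1 and 50.4 FPKM to 8.35 and 7.14 FPKM (-2.61 ± 0.35, limma adjusted p 7.16e-05).

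The phox2 relatives differed in DN cells at 3 and 4 dpf. phox2a was at 10.9 and 7.93 FPKM at 36 hpf, 0.996 and 0.844 FPKM at 52 hpf, 4.61 and 3.73 FPKM at 3 dpf and 4.69 and 3.01 FPKM at 4 dpf, with a called fall to 52 hpf (-2.43 ± 0.28, limma adjusted p 9.75e-05). phox2ba, the paralog of phox2bb, was at 4.61 and 3.40 FPKM at 36 hpf, 0 in both at 52 hpf, 0.102 and 0 FPKM at 3 dpf and 0 in both at 4 dpf. Like phox2bb, both phox2a and phox2ba had their highest DN values at 36 hpf. phox2bb was above 1 FPKM at 3 and 4 dpf, after 0.132 and 0.0488 FPKM at 52 hpf. At 36 hpf phox2bb was at 33.2 and 41.0 FPKM. Whether the lower level of phox2ba at 36 hpf had a part in its later values of 0 was not tested.

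The synuclein sncga went the other way from sncb and sncgb in the first step. Its DN values were 0.223 and 1.46 FPKM at 36 hpf, 10.5 and 8.64 FPKM at 52 hpf, 5.92 and 1.69 FPKM at 3 dpf and 13.6 and 10.5 FPKM at 4 dpf, and its rise from 36 to 52 hpf was called (2.60 ± 0.45, limma adjusted p 0.00144). EC libraries held 12.8 and 14 FPKM of sncga at 36 hpf, above DN libraries of that stage. elavl1, the widely expressed member of the ELAV-like family, was at 67.2 and 69.6 FPKM at 36 hpf, 40.0 and 39.6 FPKM at 52 hpf and 68.0 and 60.4 FPKM at 3 dpf in DN cells. How reads of near-identical paralogs were assigned or dropped in the counting was not given, so their values may be affected.

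**Figure D4:**
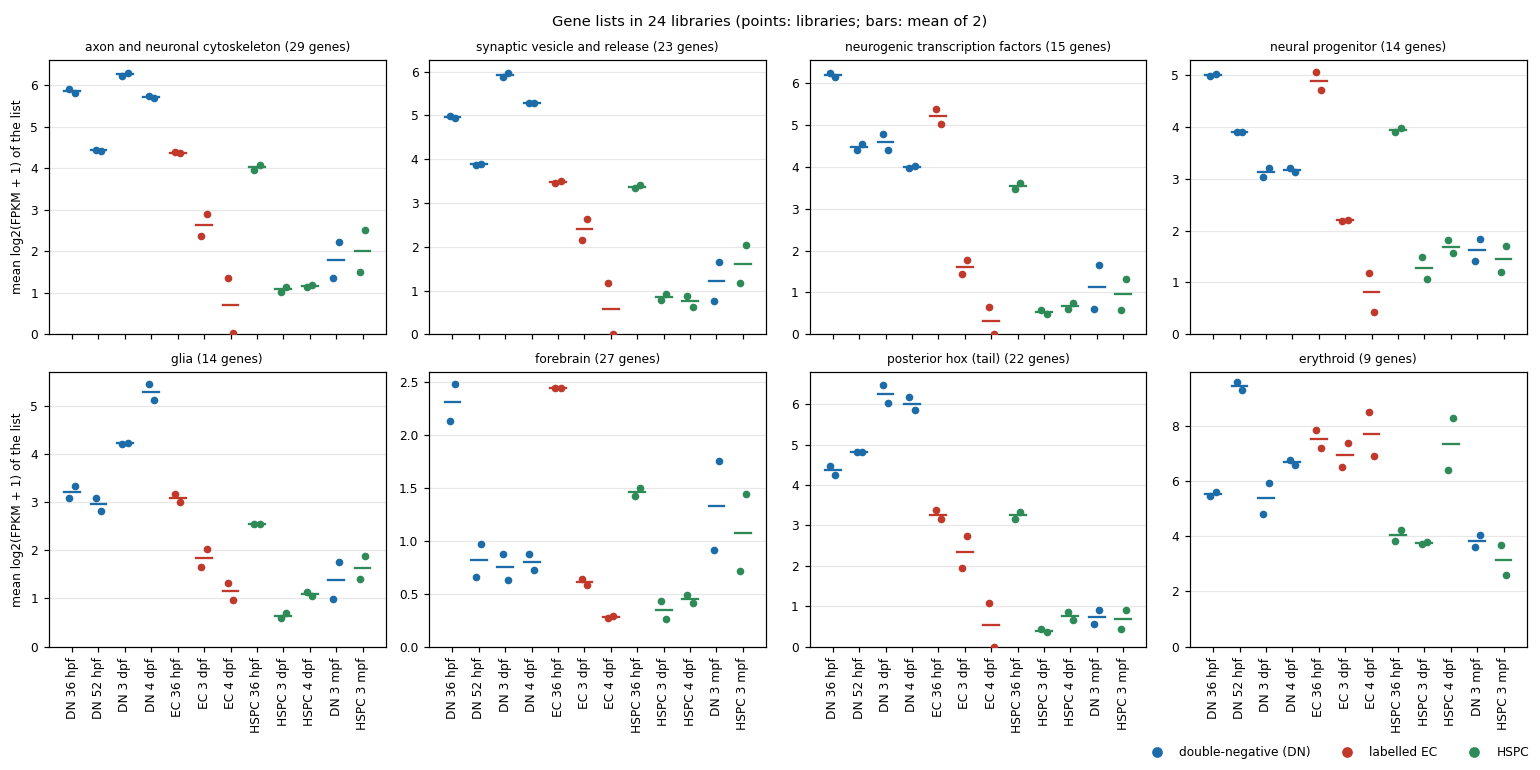
Mean log2(FPKM + 1) of 8 gene lists in every library (1 point per library, 12 groups along the horizontal axis, each panel with its own vertical range). The axon list goes in DN cells from 5.90 and 5.81 (36 hpf) to 4.45 and 4.41 (52 hpf) and then to 6.22 and 6.30 (3 dpf), while the erythroid list goes from 5.47 and 5.59 to 9.59 and 9.28 and then 4.80 and 5.93.

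Over all 24 libraries, likeness in log2(FPKM + 1) was searched among 5732 genes with a gene symbol. The expression filter passed 21024 genes, and those without a symbol were not searched, so each ranking holds among the searched genes only. Of these, the genes most like the mean of the 10 were vgf (Pearson r 0.989), ank2b (0.988), nefma and lhx5 (0.983 each) and adcyap1b (0.982). vgf encodes a neuropeptide precursor, ank2b an ankyrin, nefma a neurofilament subunit, lhx5 a LIM homeodomain factor and adcyap1b the neuropeptide PACAP. The libraries share sort, stage and depth, so these values describe the pattern and carry no test. By gene, adcyap1b (r 0.980) and vgf (0.971) were most like elavl3, ank2b (0.988) and atp2b3a (0.986) most like elavl4, and mapta (0.987) and camk2d2 (0.982) most like gng3. hoxa9b (0.972) and rtn1a (0.968) were most like gap43, sypa and mapta (0.987 each) most like sncb, and tuba2 (0.980) and hoxa10b (0.968) most like sncgb. The strongest pairing between members was gng3 with sncb (r 0.993).

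The regulators had their own nearest genes within the same search. lhx5 (r 0.975) and hoxa10b (0.972) were most like otpa, and adcyap1b (0.977) and vgf (0.973) most like mab21l2. neurod6b was nearest to scrt1b (0.951) and TENM2 (0.946), and among members to elavl4 (0.806). phox2bb was nearest to hoxc1a (0.938) and proca1 (0.906), and its closest member was elavl3 at 0.643. It was the member least like each of the other 9, down to 0.380 with neurod6b.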

How the data were processed

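Poly(A) RNA of sorted cells was sequenced in 24 libraries; the deposited values are FPKM per gene, computed by the authors. Tools named in the submitters' processing notes, with no version or role, are HISAT, HTSeq, DESeq2 and FastQC, and the build is GRCz10. The rule behind the table's filter was not given in the sources used here. Reads were recovered from the FPKM steps: each of the 23718 genes with values in 3 or more libraries came out whole within 0.01 reads, and 557 of 25067 genes were at 0 throughout.

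The fit used 16 libraries (8 groups) and the 19119 genes that reached 1 FPKM in 2 or more of them, including all 10 members. limma 3.58.1 (R 4.3.3) was fitted to log2(FPKM + 1) with group means and trend, leaving 8 residual degrees of freedom; the pseudocount understates changes of low genes. Log2 fold changes stand with ± their SE, and adjusted p-values are Benjamini-Hochberg values over all genes in a comparison, for either direction. The alternatives were a pseudocount of 0.1, no filter, other scalings, the replicate block, all 24 libraries, only the groups compared, limma-voom on recovered reads and each library left out. The script was tested on simulated data.

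Members and gene lists were chosen with earlier results of these data known. From each list, at most 2 called genes per direction with the largest change were named. The paralogs of members and elavl1 were named for their relation. Lists are given as genes called of genes tested. Python 3.11.15, numpy 2.4.6, pandas 2.3.3 and matplotlib 3.10.9 were used. No sequences or coordinates were used here.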

Additional observations from a re-analysis of the deposited data

Results flagged for a closer look

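For 7 genes the change from 36 hpf to 3 dpf differed between libraries labelled HSPC and libraries labelled EC by limma's test of the difference itself. On the log2(FPKM + 1) scale the difference, HSPC minus EC, was -4.28 for sncb, -3.33 for otpa, -3.17 for mab21l2, -2.93 for sncgb, -2.81 for elavl4 and -2.69 for gng3, each falling further in HSPC libraries. For phox2bb it was 2.0, but its direction depends on the scale: it was 0.56 with a pseudocount of 0.1 (limma adjusted p 0.701) and -1.24 by limma-voom (0.66). Both HSPC libraries were at 0 for phox2bb at 3 dpf, at least 46.5-fold below 36 hpf. The libraries labelled EC at 3 dpf held little kdrl and as much itga2b as the HSPC libraries. The mean log2(FPKM + 1) of 11 endothelial genes was 1.84 and 1.73 in these EC libraries and 1.20 and 1.28 in the HSPC libraries of 3 dpf. Of these 11 genes, 2 were called lower and 1 higher in HSPC than in EC libraries at 3 dpf, and 8 were not called. In the difference of change, all 8 muscle genes and 14 of 22 posterior hox genes were called with a negative value too. The part of these in the difference of the neuronal genes was not tested.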

How the results depend on the processing

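Of 1066 values of 79 member results under alternatives, 969 kept their direction and their side of the threshold, 70 lost a call, 18 gained one and 9 turned in sign. Called members from 36 to 52 hpf in DN cells numbered 4 with a pseudocount of 0.1 and 2 with all 24 libraries fitted, against 8. From 52 hpf to 3 dpf they were 5 with all 24, against 9. From 3 to 4 dpf they were 2 with a common FPKM sum and 1 without globin in it, against 0. In EC they were 3 with a pseudocount of 0.1, against 6. For HSPC against EC they were 2 at 36 hpf with median-of-ratios scaling or all 24 libraries, against 4, and at 3 dpf 3 with all 24 and 2 with only the groups compared, against 9. For the difference of change, 0 were called with all 24, against 7. Leaving out 1 library gave 6 to 8, 7 to 9 and 0 to 0 for the successive DN steps, 5 to 9 in EC, 9 to 9 in HSPC, 2 to 3 and 9 to 9 for HSPC against EC at 36 hpf and 3 dpf, and 6 to 9 for the difference. Calls over all genes moved as well. Under the alternatives that kept every library of the groups compared, their lowest numbers were 411 against 3755, 2848 against 7101 and 42 against 1215 in the DN steps. They were 2635 against 6233 in EC and 4653 against 8697 in HSPC. For HSPC against EC they were 286 against 1709 at 36 hpf and 155 against 2665 at 3 dpf, and 59 against 1642 for the difference. The fit to all 24 included libraries of few genes, and fits to fewer libraries had fewer degrees of freedom. Whether either had a part in these counts was not tested, nor was any other cause.

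Signs turned for sncgb (0.05) and phox2bb (-0.04) from 3 to 4 dpf without DN 4 dpf replicate 2 (ranges over libraries left out -0.19 to 0.05 and -0.04 to 0.61), for sncgb in EC (0.40) without EC 3 dpf replicate 1 (-0.54 to 0.40), and for HSPC against EC at 36 hpf in elavl4 (0.14 with median-of-ratios scaling, 0.0 without EC 36 hpf replicate 1, range -0.19 to 0.0) and mab21l2 (0.21 with that scaling, 0.05 without EC 36 hpf replicate 1, 0.06 without HSPC 36 hpf replicate 1, range -0.1 to 0.06). In the difference of change phox2bb was at -1.24 by limma-voom. The causes were not tested. Over the scalings the median of all genes ran from -0.34 to -0.05 in the first DN step, 0.07 to 0.49 in the second and -0.14 to 0.01 in the third, and limma-voom gave -0.92 in HSPC against -0.38.

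Replicate 1 minus replicate 2 differences had correlations from -0.0562 to 0.0708 between the groups compared. DN groups were not set against EC or HSPC groups of the same stage there. Whether same-numbered libraries shared a sort or clutch is therefore not settled by these values. The replicate block left the number of called members at 8, 9, 0, 6, 9, 4, 9 and 7 in the 8 comparisons. Values on under 10 reads, such as neurod6b and phox2bb at 52 hpf, carry fold changes of low precision.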

Other observations

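elavl2, an ELAV-like gene picked after its values were seen, was at 34.8 and 46.4 FPKM in kidney DN and 30.9 and 109 FPKM in kidney HSPC libraries. In every embryonic and larval library elavl2 was at most 2.30 FPKM. It was the reverse of elavl3, which was at 0.699 and 2.1 FPKM in kidney DN and 0.041 and 0.221 FPKM in kidney HSPC libraries.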
